A study of Mus with 7 samples.

Results

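Lipid droplets are stores of neutral lipid inside cells, wrapped in a single layer of phospholipid that carries coat proteins, and 8 genes that build, coat or empty them were followed here in cultured mouse macrophages. The genes were chosen by name for their role, with earlier results of these data known. They include the perilipins Plin2 and Plin3, which coat the droplet, and the triglyceride lipase gene Pnpla2 with its activator Abhd5 and its inhibitor Hilpda. The others are the later lipase gene Lipe, and Dgat1 and Dgat2, whose enzymes join the last fatty acid to a triglyceride. All 8 symbols were found once each among the 31053 genes of the count files.

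A cell that takes up more fatty acid than it burns turns the excess into triglyceride and stores it in droplets, and lipases on the droplet surface release it again. Perilipin coats regulate the access of those lipases. In macrophages, droplets grow with lipid loading and also after activation through Toll-like receptors, and they supply fatty acids for lipid mediators.

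The cells were fetal liver-derived macrophages (FLMs), a self-renewing culture from livers of wild-type C57BL/6J mouse fetuses, grown throughout with 30 ng/mL of the growth factor GM-CSF, so that they model a macrophage in culture and not one in the liver. Con cells were taken from medium with 10% fetal bovine serum (FBS) before any treatment. The other 6 conditions had 24 h in 0.25% FBS, either with 25 µM docosahexaenoic acid (DHA), an omega-3 fatty acid, carried by 8.3 µM bovine serum albumin (BSA), or with the same BSA alone (Veh). Veh.LPS.0 and DHA.LPS.0 were collected at that point. For Veh.LPS.1, DHA.LPS.1, Veh.LPS.4 and DHA.LPS.4 the medium was exchanged for one with 20 ng/mL lipopolysaccharide (LPS), a bacterial wall component, and cells were collected 1 or 4 h later, so that LPS, the exchange of medium and the hours since it cannot be told apart. Whether that medium still held DHA is not stated in the sources used here.

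There was 1 single-cell library per condition. No difference between conditions therefore has a replicate check, no test was run, and every interval below is a 95% interval for counting error alone, which says nothing of the spread between cultures. Kept cells numbered 692 to 3073 per library, 11640 in all, with a median of 29369 to 56239 unique molecular identifiers (UMIs, 1 per captured RNA molecule) per cell and 22045775 to 125716982 UMIs per library. The limit on mitochondrial RNA, below 20% of UMIs, removed 74.4 to 80.0% of the barcodes of the DHA libraries, against 35.8 to 54.7% of those of Veh and 29.0% of Con, and levels in the removed barcodes are given below. Among kept cells, 16 barcode sequences occurred in more than 1 library, 32 cells in all, with at most 4 shared by any pair of libraries. All 9 macrophage markers on the list used were present, with a summed level of 5817 to 7089 UMIs per 1000000 (CPM). The 5 adipocyte markers, Plin1 and Plin4 among them, summed to at most 0.0571 CPM in any library and Lep was at 0, and the mast cell markers were at 0 throughout. The hepatocyte list summed to 5.48 to 7.71 CPM, nearly all of it Afp, with Alb and Ttr at 0. The stellate or stromal list reached at most 0.0907 CPM, the erythroid list 0.257 CPM and the lymphoid list 0.370 CPM. The neutrophil list ran from 0.0571 CPM in DHA.LPS.0 to 6.99 CPM in DHA.LPS.4, carried by S100a8, whose part in the results below was not tested.

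Levels are UMIs of a gene per 1000000 UMIs of all kept cells of a library (CPM), counted at the 3′ end of transcripts. Positions are those of RefSeq for the mouse build GRCm38, and all 8 genes are protein coding. The coat protein genes lie at chr4:86626910-86670217 (Plin2, ENSMUSG00000028494) and chr17:56278962-56290511 (Plin3, ENSMUSG00000024197). The lipase genes and their regulators lie at chr7:141455188-141460743 (Pnpla2, ENSMUSG00000025509), chr9:122351616-122381524 (Abhd5, ENSMUSG00000032540), chr6:29272488-29275449 (Hilpda, ENSMUSG00000043421) and chr7:25379527-25398486 (Lipe, ENSMUSG00000003123). The synthesis genes lie at chr15:76502012-76512021 (Dgat1, ENSMUSG00000022555) and chr7:99153663-99182713 (Dgat2, ENSMUSG00000030747). The span of Plin2 overlaps that of Gm12551, for which no value was used here, and the span of Lipe overlaps that of 4732471J01Rik, which had 0.222 to 0.742 CPM. Reads from overlapping genes may not be told apart.

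Plin2, the perilipin found on droplets of nearly all cell types, separated the libraries by DHA. Con had 33.3 CPM (interval 32.3 to 34.3), the Veh libraries 68.0, 70.1 and 84.2 CPM at 0, 1 and 4 h of LPS, and the DHA libraries 419, 530 and 728 CPM. The lowest of the 3 DHA libraries was 4.98 times the highest Veh library (4.82 to 5.14). In the order of the 7 libraries, Veh.LPS.1 and Veh.LPS.0 were the only neighbours whose ratio, 1.03 (0.996 to 1.07), could not be told from 1 at this depth.

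Plin3, a perilipin that is mostly cytosolic and moves to newly forming droplets, followed serum and LPS more than DHA. Con had 14.7 CPM, the Veh libraries 30.9, 25.4 and 17.0 CPM at 0, 1 and 4 h of LPS, and the DHA libraries 34.4, 31.2 and 19.9 CPM. The levels at 4 h in both treatments lay nearer to Con than to 0 h.

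Pnpla2 encodes adipose triglyceride lipase, which takes the first fatty acid off a triglyceride. Con had 20.0 CPM, the Veh libraries 30.8, 27.7 and 15.7 CPM at 0, 1 and 4 h of LPS, and the DHA libraries 39.7, 33.0 and 20.3 CPM. Its order over the libraries was close to that of Plin3, with DHA.LPS.0 highest in both.

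Abhd5, the coactivator that switches this lipase on once perilipins release it, was the flattest of the better detected genes. Con had 38.1 CPM, the Veh libraries 37.2, 35.9 and 54.5 CPM at 0, 1 and 4 h of LPS, and the DHA libraries 37.0, 33.4 and 37.9 CPM. Veh.LPS.4 stood above the other 6 libraries, of which Con, DHA.LPS.4, Veh.LPS.0, DHA.LPS.0 and Veh.LPS.1 formed a run of neighbours with ratios of 1.00 to 1.03 and intervals that include 1.

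Hilpda, a small droplet protein that inhibits the same lipase and is known as a hypoxia-inducible gene, separated the libraries by both LPS and DHA. Con had 16.3 CPM, the Veh libraries 13.0, 53.9 and 80.2 CPM at 0, 1 and 4 h of LPS, and the DHA libraries 30.3, 203 and 236 CPM. Each hour of Veh lay below the same hour of DHA, and no pair of neighbours in its order had an interval that includes 1.

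The last 3 genes were low. Lipe, which encodes hormone-sensitive lipase for diglycerides and cholesteryl esters, was at 5.80 CPM in Con, at 6.08, 5.07 and 3.17 CPM in the Veh libraries and at 4.88, 3.43 and 3.18 CPM in the DHA libraries of 0, 1 and 4 h. Dgat1 was at 4.35 CPM in Con, at 5.90, 6.13 and 4.18 CPM in the Veh libraries and at 6.25, 5.72 and 4.85 CPM in the DHA libraries, and no neighbours in its order could be told apart. Dgat2 had 0.307 to 0.581 CPM, on 8 UMIs in DHA.LPS.4 to 73 UMIs in Con, and again none of its neighbours could be told apart.

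**Figure D1:**
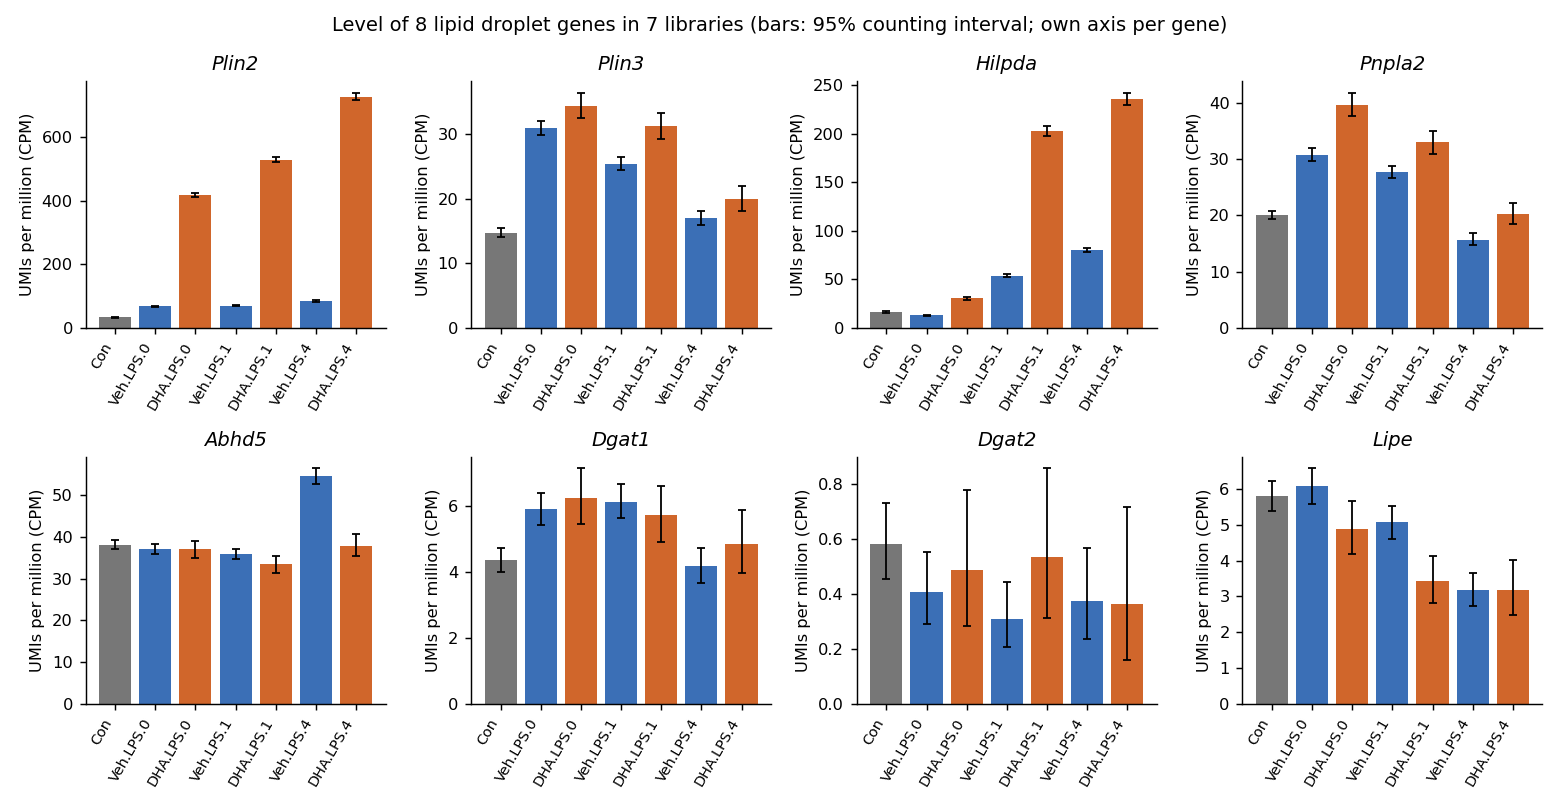
Level of each of the 8 genes (vertical axis, CPM, own scale for each gene) in the 7 libraries, with Con in grey, Veh in blue and DHA in orange, and error bars for the 95% exact Poisson counting interval. Plin2 is at 33.3 to 84.2 CPM without DHA and at 419 to 728 CPM with it, while Hilpda lies between 13.0 CPM (Veh.LPS.0) and 236 CPM (DHA.LPS.4).

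The comparison of DHA with Veh at each hour asks how the droplet genes differed after DHA, before and during LPS. A gene was counted as higher or lower when its ratio of CPM passed 1.5-fold, and the same limit was applied to every gene that was found, with 1 UMI or more, in 25% or more of the cells of one or other library. At 0 h, 2 of the 8 genes were higher in DHA and none lower, and the limit was passed by 2.03% of the 8434 genes compared. At 1 h, 3 of 8 were higher and none lower, against 3.07% of 7794 genes. At 4 h, 2 of 8 were higher and none lower, against 4.64% of 7672 genes. Plin2 and Hilpda made up these counts at every hour, and Dgat2 joined them at 1 h on 17 and 29 UMIs. The study had already reported Plin2 as raised by DHA at 0 h, so its part in these counts was known beforehand. Dgat2 and Lipe never reached the 25% share of cells, and Dgat1 reached it only in DHA.LPS.0, at 26.5%.

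Plin2 was 6.16 times its Veh level at 0 h (5.98 to 6.34), 7.56 times at 1 h (7.35 to 7.78) and 8.65 times at 4 h (8.38 to 8.93), the highest ratio of all genes compared at each hour. The log2 ratio was larger at 1 h than at 0 h by 0.30 (0.24 to 0.35) and at 4 h by 0.49 (0.43 to 0.55). With libraries scaled by trimmed means (TMM), the log2 ratios of Plin2 were 2.63, 2.95 and 2.99 at 0, 1 and 4 h. They stand in place of 2.62, 2.92 and 3.11, so the step from 1 to 4 h was smaller. Plin3 had ratios of 1.11 (1.04 to 1.19), 1.23 (1.14 to 1.33) and 1.17 (1.05 to 1.31), with intervals above 1 but below 1.5 at each hour in kept cells. Over all deposited barcodes, those above the mitochondrial limit included, its direction turned, with log2 ratios of -0.16, -0.11 and -0.14 in place of 0.15, 0.30 and 0.23. Within the barcodes above that limit alone, the ratios of Plin3 were 0.997, 0.985 and 1.01, with intervals that include 1. The pooled values thus also reflect the mix of barcodes.

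Hilpda was 2.34 times its Veh level at 0 h (2.15 to 2.54), 3.76 times at 1 h (3.62 to 3.90) and 2.94 times at 4 h (2.82 to 3.06). It ranked 14 from the top at 0 h, 3 at 1 h and 4 at 4 h among the genes compared. Its log2 ratio at 1 h exceeded that at 0 h by 0.69 (0.56 to 0.81), and at 4 h by 0.33 (0.20 to 0.46). With TMM scaling the log2 ratios of Hilpda were 1.23, 1.94 and 1.43 at 0, 1 and 4 h. Without cells with a Mki67 or Top2a UMI, the log2 ratios of Hilpda were 1.16, 1.39 and 1.47 at 0, 1 and 4 h. They stand in place of 1.23, 1.91 and 1.55, so that 1 h was no longer highest, and have no counting interval here.

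The lipase that Hilpda inhibits differed far less. Pnpla2 had DHA over Veh ratios of 1.29 (1.21 to 1.37), 1.19 (1.11 to 1.28) and 1.29 (1.15 to 1.45) at 0, 1 and 4 h. Its activator Abhd5 was at 0.996 (0.934 to 1.06) and 0.931 (0.868 to 0.998) at 0 and 1 h and at 0.696 (0.644 to 0.751) at 4 h, where only 2.83% of the genes compared had a lower ratio. The log2 ratio of Abhd5 at 4 h was below that at 0 h by a difference of -0.52 (-0.66 to -0.37). It passes the 1.5-fold limit at 4 h, at -0.65 in place of -0.52, if the libraries are scaled by trimmed means (TMM). Over all deposited barcodes it was at -0.83, a value that also reflects the mix of barcodes. Barcodes above the mitochondrial limit made up 80.0% of DHA.LPS.4 and 54.7% of Veh.LPS.4. In those of DHA.LPS.4, Abhd5 had 19.6 CPM against 37.9 CPM in kept cells. Within such barcodes alone its ratio was 0.631 (0.561 to 0.710). The TMM scaling moved the median log2 ratio of all genes by -0.12 at 4 h, and the share of higher genes among those past the limit from 47.8 to 26.8%.

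Lipe was below its Veh level at 0 h, at 0.804 (0.674 to 0.954), and at 1 h, at 0.676 (0.544 to 0.834) on 109 and 479 UMIs, and was at 1.00 (0.749 to 1.32) at 4 h. At 0 h its log2 ratio of -0.32 turned to 0.27 without cells with a Mki67 or Top2a UMI, and was -0.70, past the limit, in thinned cells. At 1 h its log2 ratio of -0.56 was -0.16 without cells with a Mki67 or Top2a UMI. It passed the limit at -0.81 over all deposited barcodes and at -0.60 with equal weight of cells. Dgat1 had ratios of 1.06, 0.932 and 1.16 at 0, 1 and 4 h, with intervals that all include 1 and lie between 0.785 and 1.46. Dgat2 had ratios of 1.20 (0.637 to 2.16), 1.74 (0.898 to 3.28) and 0.967 (0.372 to 2.25), intervals that each include both 1 and 2, so neither can be told from the other at this depth.

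**Figure D2:**
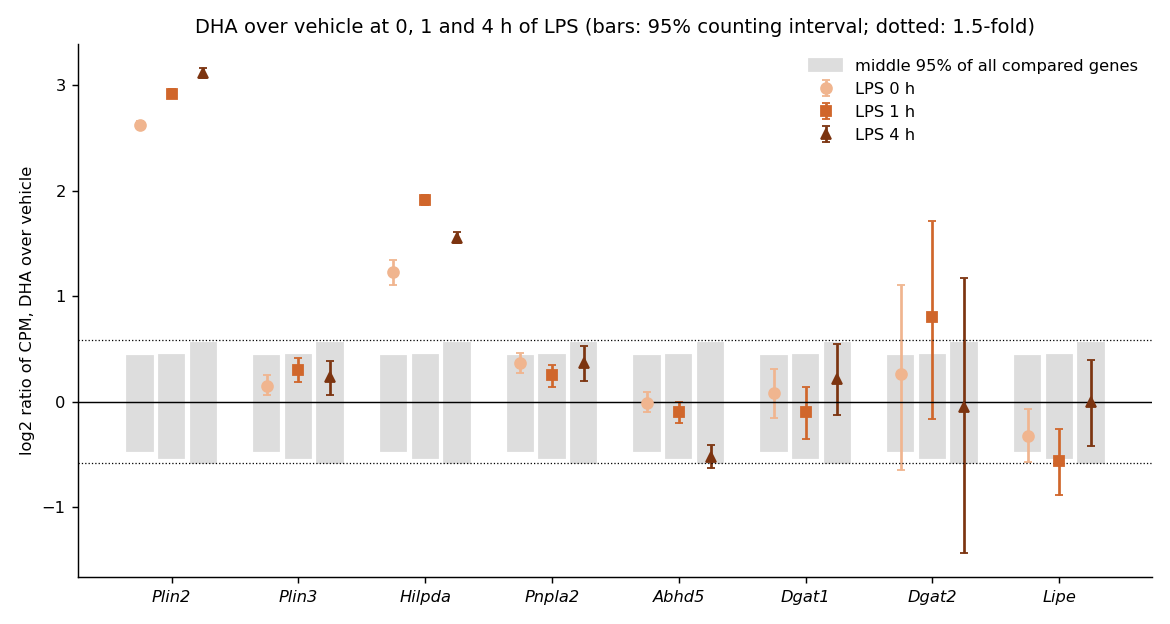
The log2 ratio of CPM in DHA over Veh (vertical axis) for the 8 genes at 0, 1 and 4 h of LPS, with 95% counting intervals, grey boxes for the middle 95% of all genes compared at that hour and dotted lines at 1.5-fold. Plin2 at 2.62 to 3.11 and Hilpda at 1.23 to 1.91 are outside the boxes at every hour, and the wide intervals belong to Dgat2.

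The difference in Plin2 was spread over the cells and uneven among them. Each kept cell was thinned at random to 20000 UMIs so that depth did not enter. The median cell then held 1 Plin2 UMI in Veh at each hour, and 4, 6 and 12 in DHA at 0, 1 and 4 h. A Plin2 UMI was found in 65.6, 66.0 and 65.5% of thinned Veh cells and in 91.7, 91.4 and 99.6% of thinned DHA cells, and without thinning in 82.6, 77.0 and 89.2% of Veh and 98.1, 97.2 and 99.9% of DHA cells. No cell type without the gene was present to measure free RNA in, so these shares stand without such a reference.

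In DHA.LPS.0, 49.9% of cells (46.1 to 53.6) held more Plin2 UMIs than the 95th percentile of Veh.LPS.0, which is 4 UMIs. The share was 55.0% (51.4 to 58.5) at 1 h and 77.0% (73.7 to 80.1) at 4 h, each against the Veh library of its hour. Because UMIs are whole counts, 3.47, 3.09 and 2.72% of the Veh cells themselves lay above it at 0, 1 and 4 h. At the other end, 20.3% of DHA.LPS.0 cells held no more Plin2 than the median Veh cell, with 15.3% at 1 h and 2.75% at 4 h. Of the Veh cells, 34.4, 34.0 and 34.5% held no Plin2 UMI at 0, 1 and 4 h, and 33.1, 32.4 and 26.6% held 1. DHA cells at 0 and 1 h thus ran from none to 108 and 160 UMIs, and the low end had nearly emptied at 4 h.

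The unevenness can be given as the variance beyond counting noise over the squared mean. For Plin2 this was 0.631, 0.689 and 1.46 for Veh at 0, 1 and 4 h, and 2.0, 1.63 and 0.579 for DHA. The 10% of DHA.LPS.0 cells with most Plin2 held 44.4% of its UMIs, against 40.2% in DHA.LPS.1 and 28.3% in DHA.LPS.4. So in DHA the level was highest, and most even between cells, at 4 h.

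Hilpda had its most uneven library elsewhere. The top 10% of cells held 57.0% of Hilpda UMIs in Veh.LPS.1, where 56.1% of thinned cells had none and 6.51% had 4 to 7, and its excess variance was 3.08. In Veh.LPS.4 the top 10% held 40.9% and the excess variance was 1.33. In DHA the excess variance of Hilpda went from 1.96 at 0 h to 1.08 at 1 h and 0.560 at 4 h. More than the 95th percentile of the matching Veh library was held by 13.0% of DHA cells at 0 h (10.6 to 15.8), 27.3% at 1 h (24.2 to 30.5) and 23.8% at 4 h (20.7 to 27.2). Of the Veh cells themselves, 2.82, 4.52 and 3.42% lay above it. Pnpla2, the target of Hilpda, had an excess variance of at most 0.230 in any library.

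**Figure D3:**
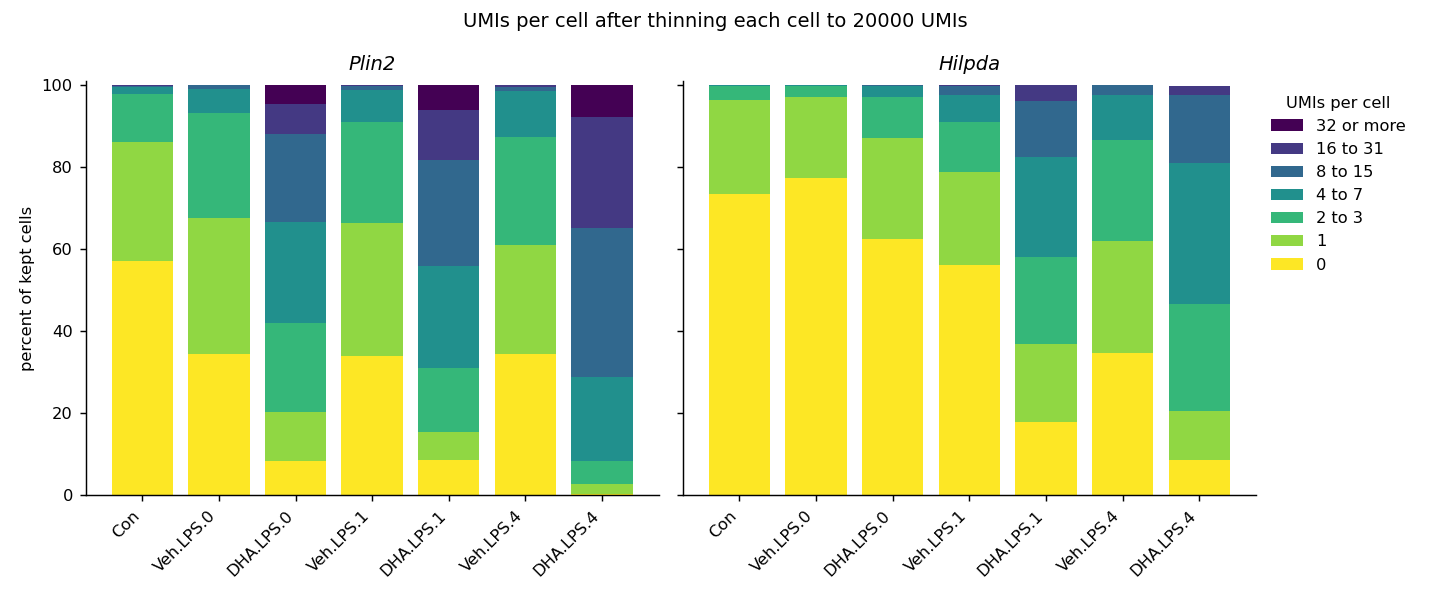
Percent of kept cells (vertical axis) by UMIs of Plin2 (left) and Hilpda (right) in each of the 7 libraries, after thinning each cell to 20000 UMIs, with colours for classes of UMIs per cell. Cells with 8 or more Plin2 UMIs are rare in Con and Veh and common in DHA, and cells without a Hilpda UMI go from 77.3% in Veh.LPS.0 to 8.67% in DHA.LPS.4.

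Within the DHA libraries the cells with more Plin2 tended to be those with more Hilpda. The Spearman correlation of these genes over thinned cells of 1 library was -0.02 for Con, with 0.04, 0.09 and 0.16 for Veh at 0, 1 and 4 h, and 0.31, 0.34 and 0.25 for DHA, over 692 to 3073 cells that share their library and its preparation. Over the other 27 pairs of the 8 genes, it ran from -0.09 to 0.17 in any library, the highest for Plin2 with Abhd5 in DHA.LPS.0. Few UMIs per cell hold such a correlation near 0, and the counts were not alike. The mean of Hilpda was 0.265 UMIs per thinned cell in Veh.LPS.0 and 4.22 in DHA.LPS.1, and most other genes were low. How much of the difference between pairs and treatments this makes was not tested. DHA.LPS.0 cells with a Hilpda UMI had a mean of 12.3 Plin2 UMIs and those without had 5.70. The ratio of these means was 2.15, 2.05 and 1.46 in DHA at 0, 1 and 4 h, and 1.15, 1.22 and 1.27 in Veh.

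The comparison of 1 and 4 h of LPS with 0 h, within Veh and within DHA, asks how the same genes differed after LPS and its exchange of medium. Both hours of a treatment share their 0 h library. At 1 h, 1 of the 8 genes was past 1.5-fold in Veh, against 8.39% of 8089 genes, and 1 in DHA, against 9.63% of 8474 genes, and in both it was Hilpda, higher with LPS. At 4 h, 1 gene was higher and 3 were lower in Veh, where 48.5% of 8385 genes were past the limit, and 2 were higher and 3 lower in DHA, against 43.2% of 8477 genes. Among all genes compared, 856 were higher and 3209 lower in Veh, and 817 higher and 2849 lower in DHA. The lower members of the 8 included Lipe in both, which did not reach the 25% share of cells used for the background.

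Hilpda was 4.15 times its 0 h level at 1 h in Veh (3.90 to 4.41) and 6.68 times in DHA (6.25 to 7.13). At 4 h it was at 6.18 times in Veh (5.81 to 6.58) and 7.76 times in DHA (7.26 to 8.30). Among the genes compared it ranked 71 from the top at 1 h and 100 at 4 h in Veh, and 47 at either hour in DHA. Its log2 ratios at 1 h were 2.05 in Veh and 2.74 in DHA. Left without cells with a Mki67 or Top2a UMI, they were 2.69 and 2.92, so the treatments lay closer. At 4 h they were then 2.49 and 2.81, in place of 2.63 and 2.96. Plin2 was at 1.03 times (0.996 to 1.07) and 1.24 times (1.19 to 1.28) its 0 h level in Veh at 1 and 4 h, and at 1.27 times (1.24 to 1.29) and 1.74 times (1.70 to 1.78) in DHA. Without cells with a Mki67 or Top2a UMI, the log2 ratio of Plin2 in Veh turned to -0.08 in place of 0.04 at 1 h and to -0.14 in place of 0.31 at 4 h.

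The lipase genes were lower at 4 h, as were many of all genes compared. Pnpla2 was at 0.511 of its 0 h level in Veh (0.474 to 0.550) and at 0.511 in DHA (0.459 to 0.569), and Lipe at 0.522 (0.441 to 0.617) and 0.650 (0.485 to 0.864). Plin3 was at 0.550 in Veh (0.511 to 0.591) and 0.579 in DHA (0.518 to 0.647). Of the genes compared, 22.6% in Veh and 18.2% in DHA had a lower ratio than Pnpla2. For Plin3 these shares were 26.2 and 24.6%. Abhd5 went the other way in Veh, at 1.47 times (1.40 to 1.54), and stayed at 1.02 times (0.938 to 1.12) in DHA. Dgat1 was at 0.708 (0.608 to 0.824) in Veh and 0.776 (0.610 to 0.983) in DHA, and Dgat2 at 0.927 (0.525 to 1.60) and 0.748 (0.279 to 1.83).

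The sizes at 4 h depend on the scale. The median gene had a log2 ratio of -0.36 in Veh and -0.29 in DHA, and TMM scaling moved these medians up by 0.43 and 0.30, and that of DHA at 1 h by 0.11. Relative to the median gene, at 4 h in Veh the log2 ratio was 2.99 for Hilpda, 0.92 for Abhd5, 0.67 for Plin2, -0.50 for Plin3, -0.57 for Lipe and -0.61 for Pnpla2. In DHA it was 3.25 for Hilpda, 1.09 for Plin2, 0.33 for Abhd5, -0.33 for Lipe, -0.50 for Plin3 and -0.68 for Pnpla2. Dgat1 was at -0.13 in Veh and -0.07 in DHA on this scale. With TMM factors its log2 ratio was -0.07 in both treatments, in place of -0.50 in Veh and -0.37 in DHA. Without cells with a Mki67 or Top2a UMI it was -0.05 in Veh. With TMM the members past the limit in Veh were Plin2 (log2 ratio 0.74), Hilpda (3.06) and Abhd5 (0.98), all higher, while Plin3 (-0.43), Pnpla2 (-0.54) and Lipe (-0.51) no longer passed it. In DHA they were Plin2 (1.10), Hilpda (3.26) and, lower, Pnpla2 (-0.67). With that scaling, 42.7% of all genes compared in Veh and 39.3% in DHA passed the limit. Under TMM the share of higher genes among all those past the limit went from 21.1 to 50.6% in Veh and from 22.3 to 46.6% in DHA at 4 h, and at 1 h from 49.5 to 61.3% and from 48.4 to 63.9%.

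**Figure D4:**
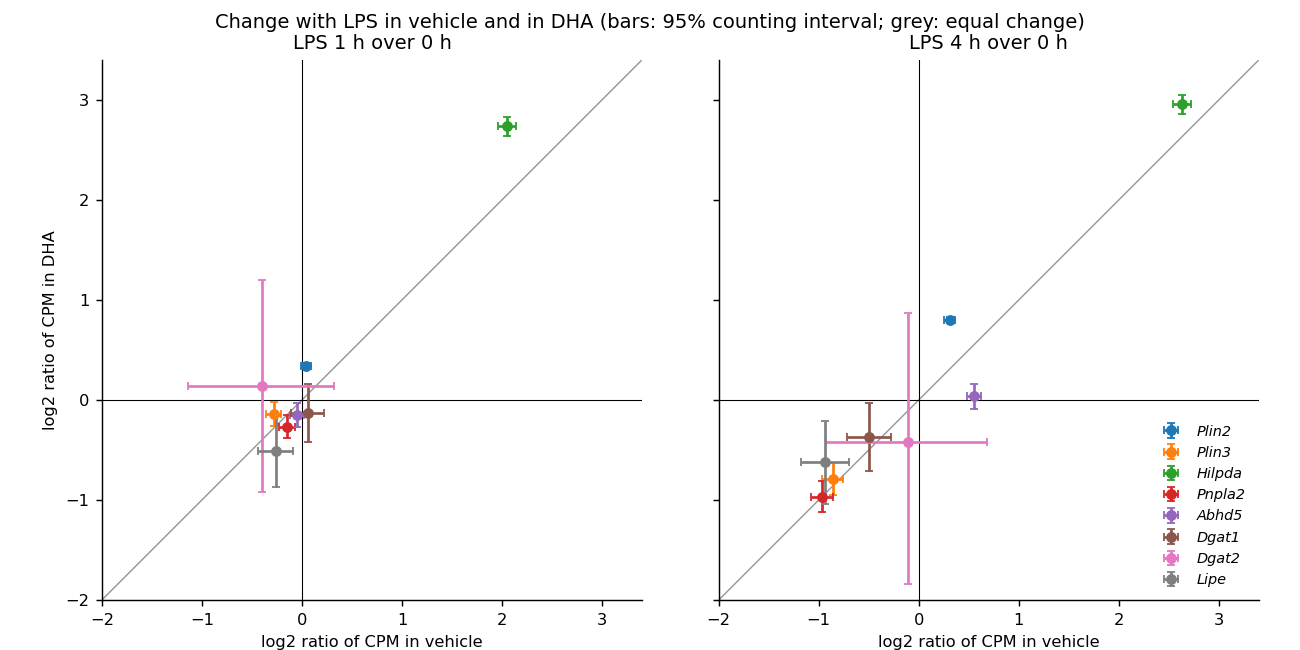
The log2 ratio of CPM with LPS over 0 h in Veh (horizontal axis) and in DHA (vertical axis) for the 8 genes at 1 h (left) and 4 h (right), with 95% counting intervals and a grey line of equal change. Hilpda and Plin2 lie above the line at either hour, and Abhd5 lies below it at 4 h, at 0.55 in Veh and 0.04 in DHA.

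Ratios between genes of the same library do not depend on how libraries are scaled against each other. The UMIs of Plin2 per UMI of Pnpla2, coat against lipase, came to 1.66 for Con (1.58 to 1.75), to 2.21, 2.53 and 5.36 for Veh at 0, 1 and 4 h, and to 10.6, 16.1 and 35.9 for DHA. Those of Plin2 per Plin3 UMI came to 2.27 for Con, to 2.20, 2.76 and 4.96 for Veh, and to 12.2, 17.0 and 36.6 for DHA. Both ratios were larger at each later hour of LPS and in DHA at every hour. At 4 h Plin2 itself was at 1.24 times its 0 h level in Veh and 1.74 times in DHA. Pnpla2 was at 0.511 times in both, and Plin3 at 0.550 and 0.579 times.

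Inhibitor and activator of the lipase, each per Pnpla2 UMI, parted between DHA and Veh, while both were higher at 4 h of LPS than at 0 h. Hilpda per Pnpla2 UMI was 0.815 for Con (0.769 to 0.865), with 0.422, 1.94 and 5.10 for Veh at 0, 1 and 4 h, and 0.765, 6.14 and 11.6 for DHA. Abhd5 per Pnpla2 UMI was 1.90 for Con (1.81 to 2.0), with 1.21, 1.29 and 3.47 for Veh, and 0.933, 1.01 and 1.87 for DHA. DHA had more Hilpda and less Abhd5 per Pnpla2 UMI at each of the 3 hours, with no overlap between the intervals of the same hour. At 0 and 1 h the lower Abhd5 ratio went mainly with the level of Pnpla2, at 1.29 and 1.19 times Veh. Abhd5 itself was at 0.996 and 0.931 times Veh at those hours, and at 0.696 at 4 h. With 4 h of LPS, Abhd5 was at 1.47 times its 0 h level in Veh and 1.02 times in DHA. Pnpla2 was at 0.511 times in both, so in DHA the larger Abhd5 ratio at 4 h went mainly with the level of Pnpla2. Dgat1 had 7.49 (Con) to 20.0 (Veh.LPS.1) UMIs for each UMI of Dgat2, and the intervals in the DHA libraries ran from 6.50 to 31.8.

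**Figure D5:**
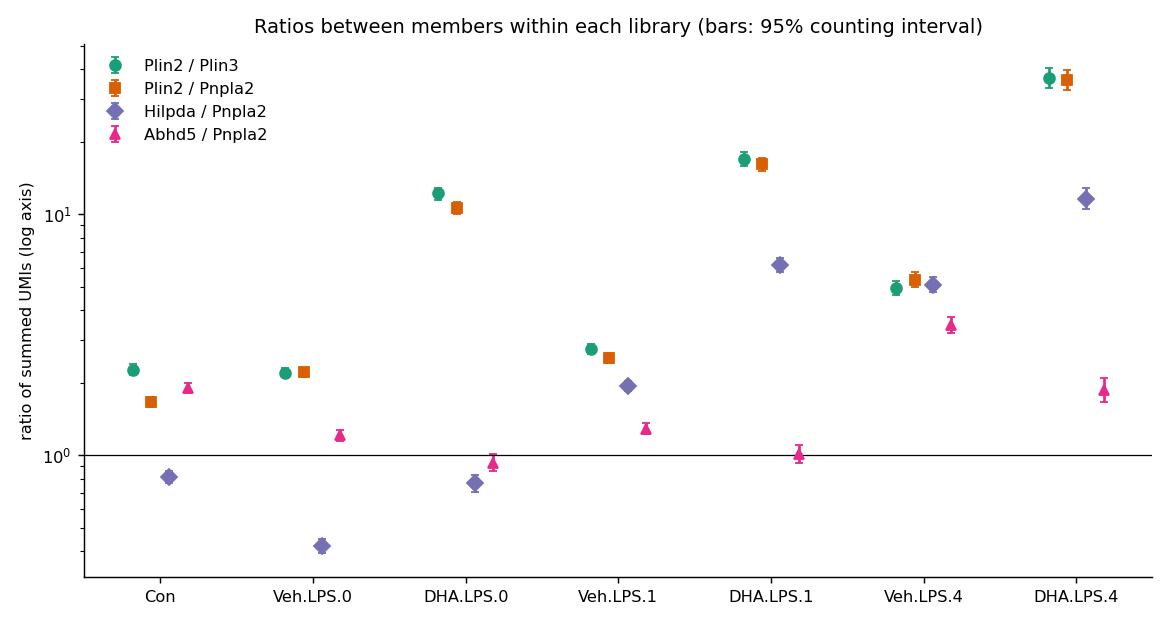
Ratio of the summed UMIs of 2 genes in the same library (vertical axis, log scale) in the 7 libraries, with 95% exact binomial counting intervals. Plin2 per Plin3 and Plin2 per Pnpla2 reach 36.6 and 35.9 in DHA.LPS.4, Hilpda per Pnpla2 reaches 11.6 there, and Abhd5 per Pnpla2 peaks at 3.47 in Veh.LPS.4.

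The comparison of Veh.LPS.0 with Con covers the change from 10% to 0.25% FBS together with BSA and 24 h of culture. Of the 8 genes, 3 were higher in Veh.LPS.0 and none lower by 1.5-fold, against 17.1% of 8252 genes. These were Plin3 at 2.10 times (1.99 to 2.23), Plin2 at 2.04 times (1.97 to 2.12) and Pnpla2 at 1.54 times (1.46 to 1.62). Dgat1 was at 1.36 times (1.21 to 1.53) and Hilpda at 0.795 (0.741 to 0.853). The intervals of Abhd5, Lipe and Dgat2 included 1.

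Nearly all Con cells held a UMI of the genes of dividing cells. Without cells that had a UMI of Mki67 or Top2a after thinning, 112 of 2908 Con cells and 316 of 2481 Veh.LPS.0 cells remained. Among those, the log2 ratio of Plin2 was 0.33 in place of 1.03 and that of Pnpla2 0.28 in place of 0.62, both within 1.5-fold, while Plin3 was at 0.83. Hilpda was at -0.73 and Lipe at -0.69, both past the limit on the lower side, and Dgat2 at 1.15 on the higher side. These values have no counting interval here. Dgat2 had only 73 UMIs over all 2908 Con cells, so its value in the 112 cells rests on very few. With TMM scaling, Pnpla2 was at 0.58, just short of the limit.

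Barcodes with at least 20% mitochondrial UMIs, which the limits removed, were read separately, since most DHA barcodes were of this kind. They numbered 1351 in Con, 1337 to 2041 in the Veh libraries and 2884 to 4580 in the DHA libraries. Plin2 had 39.2, 40.0 and 50.6 CPM in those of Veh at 0, 1 and 4 h. In those of DHA it had 189, 271 and 405 CPM, and every library was below its kept cells. CPM divides by all UMIs, mitochondrial ones included, and the median mitochondrial share of kept cells was 6.61 to 7.53%. The larger share in removed barcodes lowers the CPM of other genes by itself, so levels there and in kept cells are not on the same scale. The DHA over Veh ratios of Plin2 within the removed barcodes were 4.83 (4.41 to 5.28), 6.77 (6.18 to 7.42) and 8.0 (7.46 to 8.58).

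Hilpda was higher in the removed barcodes than in kept cells of every library, with 17.9, 87.0 and 102 CPM in Veh and 35.4, 303 and 301 CPM in DHA. Its DHA over Veh ratios were 1.97 (1.71 to 2.28), 3.49 (3.27 to 3.72) and 2.95 (2.80 to 3.11). Dgat1 was higher there too, at 6.07 CPM in Con and 8.23 to 12.6 CPM in the other libraries, while Plin3, Pnpla2, Abhd5 and Lipe were lower than in kept cells of the same library. Abhd5 was at 1.12 (0.949 to 1.32), 0.721 (0.613 to 0.848) and 0.631 (0.561 to 0.710) of Veh. Over all deposited barcodes together, the log2 ratios of Plin2 at 0, 1 and 4 h were 2.30, 2.63 and 2.85 and those of Pnpla2 were -0.05, -0.19 and -0.09. Within the removed barcodes alone, the DHA over Veh ratios were 1.26 (1.03 to 1.55), 1.03 (0.843 to 1.25) and 1.07 (0.853 to 1.34) for Pnpla2, and 0.997 (0.850 to 1.17), 0.985 (0.809 to 1.20) and 1.01 (0.827 to 1.24) for Plin3. The pooled values of both genes thus lay below those of the kept and of the removed barcodes taken separately. So did those of Abhd5, at log2 ratios of -0.30, -0.50 and -0.83. The libraries differ in the share of removed barcodes, and the levels of these genes were lower in those.

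The other genes of droplet biology were read from lists and compared by the same limit. Of 20 other droplet proteins, 11 or 12 were compared, and none of these passed 1.5-fold between DHA and Veh at any hour. That limit was passed by 2.03, 3.07 and 4.64% of all genes at 0, 1 and 4 h. None among so few genes is close to those shares. The median log2 ratio of these droplet proteins was 0.08, 0.03 and 0.12 at 0, 1 and 4 h, beside -0.05, -0.05 and 0.08 over all genes. The largest difference at 0 h was that of Hsd17b11, at 0.828 (0.754 to 0.908), and Bscl2, the seipin that organises droplet budding, was at 1.07, 1.04 and 1.07. Plin1, Plin4, Plin5 and Cidec, chosen after their values were seen, had at most 0.0629 CPM in any library, so Plin2 and Plin3 were the only perilipins with more than traces.

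Of 15 genes of triglyceride synthesis before the DGAT step, 8 were compared at 0 h and none was past the limit, with a median log2 ratio of -0.06. Lpin1, which makes diglyceride from phosphatidic acid, had the largest difference, at 0.680 times Veh at 0 h (0.631 to 0.733), 0.529 at 1 h (0.483 to 0.578) and 0.977 at 4 h (0.812 to 1.17). It was the only one of 8 past the limit at 1 h, and Mogat1 the only one of 10 at 4 h, both lower in DHA. Over all genes, 2.03, 3.07 and 4.64% passed the limit at 0, 1 and 4 h. Agpat5, Gpat4 and Agpat2, acyltransferases of the same route, were at 0.856, 0.887 and 0.926 at 0 h.

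Of 14 other genes of lipid hydrolysis and sterol esters, 7 or 8 were compared. The limit was passed by 2.03, 3.07 and 4.64% of all genes at 0, 1 and 4 h. Lipa, the lysosomal acid lipase, was past the limit at each hour, at 1.81 (1.76 to 1.87), 1.86 (1.80 to 1.93) and 1.66 (1.57 to 1.75) times Veh. Nceh1, a cholesteryl ester hydrolase, was at 1.40, 1.42 and 1.67 and past it at 4 h, while Lpl, the secreted lipoprotein lipase, was lower at 4 h. Ddhd2 and Pnpla6 were at 0.858 and 0.871 at 0 h. G0s2, another inhibitor of the Pnpla2 lipase, chosen after its values were seen, had at most 0.0314 CPM.

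Plin2 is a known target of the fatty acid sensing PPAR receptors, and of 19 other such targets, Lpl again among them, 14 were compared. At 0 h, 4 were higher in DHA and none lower, with a median log2 ratio of 0.14 beside -0.05 over all genes. The 4 were Cpt1a, which admits fatty acids to mitochondria, at 2.05 (1.83 to 2.29), Cd36, a fatty acid receptor, at 1.89 (1.78 to 2.01), and the oxidation enzymes Acadvl and Acaa2 at 1.65 and 1.58. At 1 h 4 were higher and 1 lower (Fabp5), and at 4 h 3 were higher and 2 lower (Fabp4 and Lpl). Of all genes, 2.03, 3.07 and 4.64% passed the limit at 0, 1 and 4 h. At 4 h Cpt1a, found in 5.94% of Veh.LPS.4 and 18.5% of DHA.LPS.4 cells, missed the 25% share and was outside the count. It was at 6.17 times Veh there (4.59 to 8.39), on a level of 1.11 CPM in Veh.LPS.4. The part of PPAR receptors in the levels of Plin2 or of the other genes was not tested.

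Hilpda is a known target of hypoxia-inducible factors, and of 16 others, 11 or 12 were compared. At 0 h, 3 were higher and none lower, with a median log2 ratio of 0.22, and at 1 and 4 h 4 and 3 were higher and none lower, with medians of 0.30 at either hour. The medians over all genes were -0.05, -0.05 and 0.08, and 2.03, 3.07 and 4.64% of all genes passed the limit. Below Veh but within the limit were 2, 2 and 3 of the listed genes compared at 0, 1 and 4 h. Ankrd37 was at 1.79, 1.68 and 1.65 times Veh at 0, 1 and 4 h, and Ndrg1 at 1.71, 2.04 and 1.37. Ero1l was at 1.56, 1.62 and 1.18, and Bnip3, a mitophagy receptor, at 1.40, 1.54 and 1.85. With LPS in Veh, the list had medians of -0.09 at 1 h and 0.11 at 4 h, beside -0.10 and -0.36 over all genes. In DHA they were -0.02 and -0.11, beside -0.12 and -0.29. At 1 h, 2 of the list were higher and none lower in either treatment. At 4 h, 5 were higher and 2 lower in Veh, and 3 higher and 3 lower in DHA. Of all genes, 8.39 and 48.5% in Veh and 9.63 and 43.2% in DHA passed the limit. The oxygen level of the cultures was not measured in these files, and its part was not tested.

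The genes most like Plin2 over the 7 libraries, by Pearson correlation of log2(CPM + 1) among 8766 genes, were Gpnmb at 0.98 and Atp6v1c1, Sgpl1, Tbc1d20 and Ctsl at 0.97. Gpnmb, a lysosome-associated glycoprotein, had 44.8, 37.1 and 45.7 CPM in DHA and 9.92 to 11.8 CPM in Veh. Those most like Hilpda were Srxn1 at 0.98, Atp6v1h, Noct and Cebpb at 0.97 and Ubap1 at 0.96. Cebpb, a transcription factor of myeloid activation, had 259 CPM in Veh.LPS.0 and 616 CPM in DHA.LPS.4. Plin2 and Hilpda themselves had 0.73. With 7 libraries that share their treatments in pairs, many genes reach such values, and these are descriptions only.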

How the data were processed

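Single-cell RNA from 7 cultures of FLMs, 1 library each, had been captured with the 10x 3′ kit (v3 chemistry). The authors deposited raw UMI counts per gene and barcode, made with Cell Ranger for the build mm10. The file headers and the submitters' processing notes give 3.1.0 as its version, and the methods of the study give another. Barcodes with more than 20000 UMIs, at least 2000 genes and below 20% mitochondrial UMIs were kept, the limits given in those methods. No doublet caller was run, and cells above 2 times the median UMIs were left out as an alternative.

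UMIs were summed per library and divided by its total (CPM). Exact Poisson intervals were used for CPM, exact binomial (Clopper-Pearson) ones for shares and ratios, and the delta method for differences of log2 ratios, all at 95% and for counting error only. Cells were thinned to 20000 UMIs without replacement with seed 7, in Python 3.11.15 with numpy 2.4.6 and scipy 1.17.1. TMM factors came from edgeR 4.0.16 in R 4.3.3. The ratio script was checked on simulated counts. With 1 library per condition no test was run. The 8 genes, the gene lists and the limits were chosen with earlier results of these data known. From each list, up to 4 genes with the largest log2 difference between DHA.LPS.0 and Veh.LPS.0 were named, and 5 genes most like each of Plin2 and Hilpda. Alternatives were TMM factors, equal weight of cells, thinned cells, other limits on UMIs, mitochondrial share and share of cells, a 2-fold limit, all barcodes, and cells without Mki67 or Top2a. Sequences of the genes were not used here.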

Additional observations from a re-analysis of the deposited data

Results flagged for a closer look

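In the barcodes with at least 20% mitochondrial UMIs, which were outside the kept cells that the main comparisons use, Plin2 was higher in DHA than in Veh by ratios of 4.83 at 0 h, 6.77 at 1 h and 8.0 at 4 h. In the same barcodes Hilpda was higher in DHA by ratios of 1.97 at 0 h, 3.49 at 1 h and 2.95 at 4 h. These values are listed because they lie outside the kept cells and their counting intervals lie wholly above 1.5. No member had LPS ratios in Veh and DHA whose counting intervals lay on opposite sides of 1.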

How the results depend on the processing

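Of 72 recounts of the members past 1.5-fold, 66 stayed within 1.5 times the count given. This compares the number alone, and the members could change within it. For Veh.LPS.4 against Veh.LPS.0, Plin3, Hilpda, Pnpla2 and Lipe gave way to Plin2, Hilpda and Abhd5 with TMM factors. Of all genes compared, 42.7% then passed. For Veh.LPS.0 against Con, Plin2, Plin3 and Pnpla2 gave way to Plin3, Hilpda, Dgat2 and Lipe without cells with a Mki67 or Top2a UMI. The recounts outside that range were as follows. For Veh.LPS.1 against Veh.LPS.0, 2 members passed in place of 1 when each cell weighed the same and when cells were thinned to 20000 UMIs, Dgat2 being added. For Veh.LPS.4 against Veh.LPS.0, 1 passed at a 2-fold limit, and for DHA.LPS.4 against DHA.LPS.0 also 1, Hilpda in both. For DHA.LPS.1 against DHA.LPS.0, 2 passed over all deposited barcodes, with Lipe added. For DHA.LPS.4 against DHA.LPS.0, 3 passed with TMM factors, where 39.3% of all genes compared passed. Apart from the 2-fold limit, whose construction gives fewer calls, the cause was not tested. Plin2 and Hilpda were past 1.5-fold between DHA and Veh at all 3 hours under every one of these alternatives, with log2 ratios of 2.30 to 3.18 for Plin2 and 1.16 to 2.14 for Hilpda. Of 512 recomputed log2 ratios of members, 429 lay within the counting interval of the value given and 83 outside it, and no value given above as past the limit changed sign. Among values within the limit, 3 passed it with the other sign, each without cells with a Mki67 or Top2a UMI: Dgat2 at 1.15 in place of -0.52 and Lipe at -0.69 in place of 0.07 in Veh at 0 h against Con, and Dgat2 at 0.70 in place of -0.05 in DHA against Veh at 4 h. All 3 rest on smaller sets of cells and are given without a counting interval. The background percentages moved by less than 1.5 times with a share limit of 10% or 50% of cells. No paired analysis was possible because each condition had 1 library. Depth limited Dgat2, with 8 to 73 UMIs a library, and Lipe and Dgat1 in the DHA libraries.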
